A study of Saccharomyces cerevisiae with 22 samples.

Results

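The 8 genes described here encode Sus1 and the proteins it is assembled with, namely SUS1, SGF11, SGF73, UBP8, SAC3, THP1, CDC31 and SEM1. They were located by symbol in the yeast annotation, and every listed Sus1 peak with its summit between 500 bp before the start codon and 150 bp after the stop codon was taken as theirs. They are 8 of the 6002 nuclear protein-coding genes annotated in the sacCer3 genome. Sus1 binding was measured by ChIP-exo in strains that carry Sus1 with a MYC tag at its C terminus. In ChIP-exo the precipitated DNA is digested by an exonuclease that stops at the cross-link. The strains were spt7-deletion, spt8Δ and the wild type. By the study's methods the first of these carries a truncated Spt7, so spt7-deletion is used here only as the name the labels give. All derive from BY4741 and share the tag and the markers leu2-Δ0, his3-Δ1, met15-Δ0 and ura3-Δ0, and each was sampled after 15 min at 37 °C and at 25 °C in rich medium. The labels give 22 samples, with 3 replicates of each of the 6 tagged conditions and 4 no-tag samples, and the data used here are 1 peak list per tagged condition. There is therefore no spread between replicates and no test between conditions, and the no-tag samples were not analysed here.

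SAGA is a coactivator complex that acetylates histones and removes ubiquitin from histone H2B. Its deubiquitinase module consists of the ubiquitin protease Ubp8 with Sgf11, Sgf73 and Sus1, and Sgf73 anchors the module to the rest of the complex. Sus1 is also a subunit of TREX-2, which links transcribed genes to mRNA export at the nuclear pore. There it is joined by the scaffold Sac3, by Thp1, by the centrin Cdc31, a calcium-binding protein also found at the spindle pole body, and by Sem1, a small protein also found in the proteasome lid. SLIK, a form of SAGA, holds a C-terminally shortened Spt7 and lacks Spt8, which is the difference that these mutants address.

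The lists hold 20179 peaks in spt7-deletion at 37 °C, 18085 in spt7-deletion at 25 °C, 17390 in spt8Δ at 37 °C, 16593 in spt8Δ at 25 °C, 17694 in the wild type at 37 °C and 16887 in the wild type at 25 °C. Fold enrichment is the height of a peak relative to the local background of its own list, and the percentile of a peak is its place by fold enrichment among all peaks of that list, with 100 as the highest. The lists differ in depth, with a lowest background of between 5.98 and 36.3 reads, so fold enrichments of different lists are set side by side only and presence in a list depends on its depth. Intervals of fold enrichment are exact 95% Poisson intervals of the peak height, which cover counting error only. No summit fell in the coding region of SPT8 in any list, wild type included, and each list had between 7 and 10 summits in SPT7, so peaks at these genes give no check of the strain labels.

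The DNA under 6 of the sites that recurred between lists is shown here, read from the sacCer3 reference on the plus strand, which is the coding strand of all 8 genes. A site is a run of overlapping peaks from any of the lists. The long sites of SAC3 and THP1, in 6 and 5 lists, are given by position only. The first sequence, chr4:1201710-1201842, lies upstream of SEM1 and has a tRNA-Lys gene in capitals. The next 3 are sites listed in 4 lists, with the summit bases in capitals. They are a site in HOM2 upstream of SAC3 (chr4:771376-771436), a site within SAC3 (chr4:773647-773707) and a site near the end of UBP8 (chr13:717964-718041). The HOM2 stretch shows 1 summit each of spt8Δ and the wild type at 25 °C, and the other summits of that site lie before it. The last 2, also with summits in capitals, are the site at the start of CDC31 (chr15:811012-811072) and the single site of SGF11 (chr16:466117-466181).
SEM1 upstream: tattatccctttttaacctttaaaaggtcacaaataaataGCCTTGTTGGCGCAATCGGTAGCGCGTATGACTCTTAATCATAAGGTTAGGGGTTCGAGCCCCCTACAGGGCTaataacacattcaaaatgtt
SAC3 in HOM2: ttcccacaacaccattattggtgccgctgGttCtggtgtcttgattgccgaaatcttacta
SAC3 coding: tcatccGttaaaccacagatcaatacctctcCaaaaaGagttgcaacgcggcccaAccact
UBP8 coding: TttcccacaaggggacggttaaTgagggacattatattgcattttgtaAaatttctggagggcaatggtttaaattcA
CDC31 start: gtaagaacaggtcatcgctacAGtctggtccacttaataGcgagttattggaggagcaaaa
SGF11 coding: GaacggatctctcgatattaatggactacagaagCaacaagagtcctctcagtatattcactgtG

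Over the 6 lists the 8 windows held 106 summits. Of these, 78 lay in coding exons, 26 in the 500 bp upstream and 2 in the 150 bp after a stop codon, while the introns of SUS1 held 0. By list, 17.6 to 31.8% of the summits of the 8 genes were upstream, against 14.9 to 18.5% over all genes. The share was higher at the 8 genes in all lists but spt8Δ at 25 °C. SEM1 alone held 10 of the 26, and the part of gene length was not tested. The distribution was uneven, since SAC3 had 39 summits and SUS1 none. The genes fell into those listed in every condition (UBP8, SAC3, THP1, CDC31 and SEM1), those listed in 3 lists (SGF11 and SGF73) and SUS1. Being listed in all 6 lists was common, at 63.1% of all genes, so 5 of 8 genes is close to that background. Of the 26 upstream summits, 8 lay within the coding region of a neighbouring gene.

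**Figure D1:**
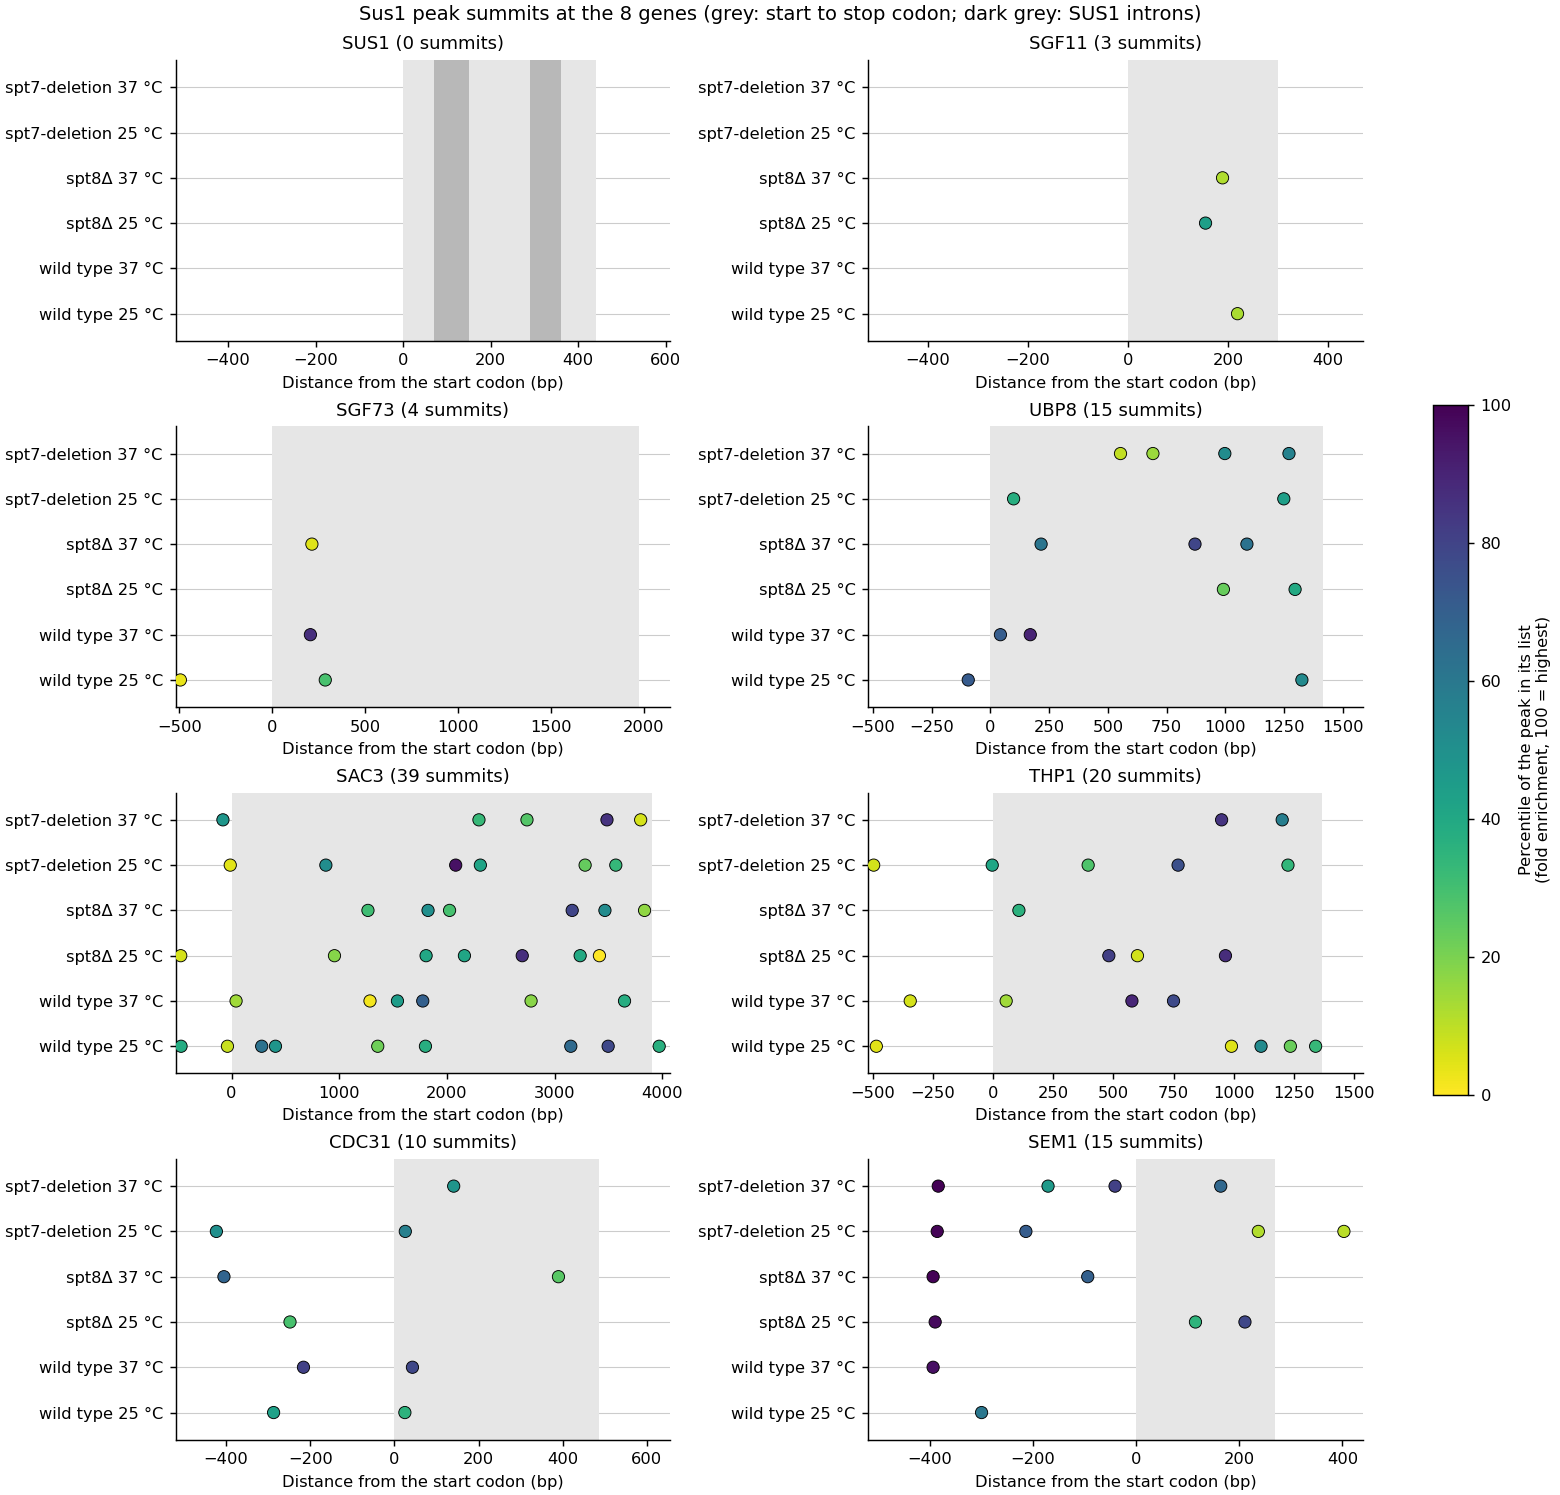
Position of every Sus1 peak summit at the 8 genes. The horizontal axis is the distance from the start codon in bp, each row is 1 list, the grey area runs from the start to the stop codon, and the colour is the percentile of the peak within its list. SUS1 has no summit, the 39 summits of SAC3 are spread along the gene, and the darkest points are those about 390 bp upstream of SEM1.

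SUS1 itself (YBR111W-A, chr2:462139-462579) had no listed peak in its window in any strain at either temperature. In these strains the locus is altered, since the MYC tag was integrated at the end of the coding region with a HIS3 marker. The reference used for mapping lacks this insert, and its effect on what is listed was not tested. The gene is unusual in yeast for its 2 introns, and its 3 exons encode a protein of 96 codons. Of all genes, 187 (3.12%) were without a summit in all 6 lists. Its window of 1091 bp is short, and among the 726 genes with a window no longer than that, 66 (9.09%) were likewise without a summit. Among the 616 genes with a window within 10% of the same length, 42 (6.82%) had none over the 6 lists, and the median was 7 summits. Having none was thus uncommon at this window length, though SUS1 was not alone in it. No upper limit on binding follows from this, because the lists hold only peaks that passed the authors' threshold.

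The nearest summits outside the window of SUS1 differed in distance between lists. These distances, and the lengths of the stretch below, are in reference coordinates, without the tag and its marker. Before the gene, the nearest summit lay 4088 bp away in spt7-deletion at 37 °C and 1747 bp away at 25 °C. It was 4194 bp away in spt8Δ at 37 °C and 1253 bp away at 25 °C. It was 4216 bp away in the wild type at 37 °C and 583 bp away at 25 °C. In each strain this summit was thus farther away at 37 °C, where all 3 fell in CMD1, the calmodulin gene, than at 25 °C. Past the stop codon, the nearest summit lay 602 and 792 bp away in spt7-deletion at 37 °C and 25 °C, 7384 and 4677 bp away in spt8Δ at 37 °C and 25 °C, and 419 and 403 bp away in the wild type at 37 °C and 25 °C. Those of spt7-deletion and the wild type were in CYC8, which encodes a subunit of the Cyc8-Tup1 corepressor, and those of spt8Δ lay beyond CYC8.

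The stretch without a summit around SUS1 was 5130 bp long in spt7-deletion at 37 °C and 2979 bp at 25 °C. It was 12018 bp in spt8Δ at 37 °C and 6370 bp at 25 °C, and 5075 bp in the wild type at 37 °C and 1426 bp at 25 °C. The median distance between neighbouring summits was between 343 and 446 bp in these lists. In spt8Δ at 37 °C, where the stretch was longest, 13 of 17374 such distances (0.0748%) were at least as long. There it held the whole of ALG1, YSA1, SUS1, CYC8 and RAD16. In the wild type at 25 °C it was an ordinary distance, with 1856 of 16871 distances at least as long. The stretch was chosen because it holds SUS1, and a gene falls in a long stretch more readily than in a short one. These shares of distances therefore make the stretch look rarer than it is for a given gene. Whether reads map equally well along it was not tested.

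**Figure D2:**
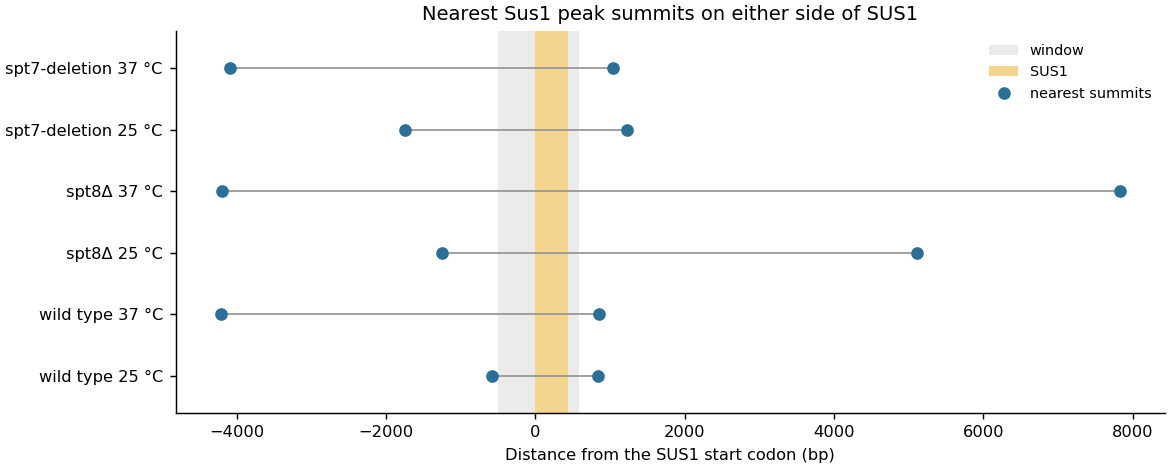
Nearest Sus1 peak summit on either side of SUS1 in each list. The horizontal axis is the distance from the SUS1 start codon in bp of the reference, which lacks the tag and its marker. Points are the nearest summits, the yellow area is the gene and the grey area the window. The stretch between the points is longest in spt8Δ at 37 °C, at 12018 bp, and shortest in the wild type at 25 °C, at 1426 bp.

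UBP8 (YMR223W, chr13:716715-718130), the ubiquitin protease, had 4 summits in spt7-deletion at 37 °C, 2 in spt7-deletion at 25 °C, 3 in spt8Δ at 37 °C, 2 in spt8Δ at 25 °C and 2 in each wild-type list. Its total of 15 was near the median of 17 over the 995 genes with a window within 10% of the same length. All but 1 of these summits lay in the coding region. The exception was a summit at -94 bp in the wild type at 25 °C, with a fold enrichment of 3.74 (2.73 to 5.0). The site near the end of the gene was listed in 4 lists, with summits at 1271 bp in spt7-deletion at 37 °C, 1249 bp in spt7-deletion at 25 °C, 1297 bp in spt8Δ at 25 °C and 1326 bp in the wild type at 25 °C. Their fold enrichments were 2.43 (1.97 to 2.95), 2.57 (2.0 to 3.25), 3.04 (2.08 to 4.30) and 3.21 (2.34 to 4.32) in that order. These are middling peaks of their lists, at percentiles between 39.7 and 56.2. A site at 992 to 1092 bp was shared by spt7-deletion at 37 °C and both spt8Δ lists and was not listed in the wild type. In the wild type at 37 °C the summits lay at the other end of the gene, at 43 and 170 bp, and that at 170 bp was the highest-placed peak of UBP8 in any list, at percentile 89.9 with a fold enrichment of 5.73 (4.12 to 7.79).

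SGF11 (YPL047W, chr16:465962-466261), a subunit that contacts Sus1 in the deubiquitinase module, had 3 summits in all and none upstream. They formed a single site in the middle of its short coding region, at 189 bp in spt8Δ at 37 °C, 155 bp in spt8Δ at 25 °C and 219 bp in the wild type at 25 °C. Their fold enrichments were 1.87 (1.49 to 2.32), 3.15 (2.27 to 4.26) and 2.21 (1.58 to 3.03), below the median of each list. Neither spt7-deletion list nor the wild type at 37 °C had a summit there. Of 463 genes with a window within 10% of the same length, 79.0% had at least 3 summits.

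SGF73 (YGL066W, chr7:377609-379582), the anchor of the module and the yeast ataxin-7 homologue, had few summits for its length. Its window of 2624 bp held 4 over the 6 lists, against a median of 24 over the 741 genes with a window within 10% of that length, of which 96.2% had as many or more. A site near the start of the coding region was listed at 214 bp in spt8Δ at 37 °C, at 206 bp in the wild type at 37 °C and at 286 bp in the wild type at 25 °C. The wild-type peak at 37 °C stood high in its list, at percentile 86.7 with a fold enrichment of 5.36 (4.10 to 6.89), whereas that of spt8Δ at 37 °C was at percentile 4.73 with 1.67 (1.34 to 2.07). The peak of the wild type at 25 °C lay between, at percentile 29.2 with 2.64 (1.98 to 3.47). The remaining summit, at -494 bp in the wild type at 25 °C, was in the coding region of the neighbour NPY1. Its site was also listed in spt8Δ and the wild type at 37 °C, with summits outside the window at -512 and -581 bp. No list had a summit farther into SGF73.

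SAC3 (YDR159W, chr4:771877-775782), the scaffold of TREX-2 and the longest of the 8 genes, had 5 summits in spt7-deletion at 37 °C, 6 in spt7-deletion at 25 °C, 6 in spt8Δ at 37 °C, 7 in spt8Δ at 25 °C, 6 in the wild type at 37 °C and 9 in the wild type at 25 °C. Its total of 39 was under the median of 48 for the 161 genes of like window length, of which 72.7% had as many or more. The summits were spread along the gene and came from 19 sites. The last part of the coding region, 3151 to 3650 bp from the start codon (peaks chr4:775009-775563), held 10 peaks that chained into a site listed in all 6 lists, although its summits were up to 499 bp apart. Within it the summits of spt7-deletion at 37 °C (3487 bp), spt8Δ at 37 °C (3468 bp) and the wild type at 25 °C (3498 bp) lay close together, with fold enrichments of 3.09 (2.57 to 3.68), 2.49 (1.98 to 3.09) and 4.0 (2.96 to 5.29).

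A second recurrent site of SAC3, shown above, had its summit at 1825 bp in spt8Δ at 37 °C, 1807 bp in spt8Δ at 25 °C, 1776 bp in the wild type at 37 °C and 1801 bp in the wild type at 25 °C, and was not listed in spt7-deletion. The highest-placed peak of SAC3 was at 2082 bp in spt7-deletion at 25 °C, at percentile 95.6 with a fold enrichment of 4.52 (3.73 to 5.43). It overlapped a peak of spt8Δ at 37 °C, which was at percentile 29.3 with 2.17 (1.82 to 2.57), and no peak of the other lists. Upstream, a site just before the start codon was listed at -80 bp in spt7-deletion at 37 °C, at -12 bp in spt7-deletion at 25 °C and at -38 bp in the wild type at 25 °C, with percentiles of 47.4, 4.47 and 8.49. The site in HOM2, an amino acid synthesis gene that precedes SAC3, had summits at -472 bp in spt8Δ at 25 °C and -469 bp in the wild type at 25 °C. Its other peaks had their summits outside the window, at -567 bp in spt7-deletion at 37 °C, -560 bp in spt7-deletion at 25 °C and -555 bp in spt8Δ at 25 °C.

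THP1 (YOL072W, chr15:194970-196337), the TREX-2 subunit that binds Sac3 together with Sem1, had 2 summits in spt7-deletion at 37 °C, 5 in spt7-deletion at 25 °C, 1 in spt8Δ at 37 °C, 3 in spt8Δ at 25 °C, 4 in the wild type at 37 °C and 5 in the wild type at 25 °C. In each strain fewer were thus listed at 37 °C than at 25 °C, by between 1 and 3 summits. A run of overlapping peaks in the second part of the coding region reached 5 lists, with summits at 950 bp in spt7-deletion at 37 °C, 769 bp in spt7-deletion at 25 °C, 966 bp in spt8Δ at 25 °C, 750 bp in the wild type at 37 °C and 991 bp in the wild type at 25 °C. The summits were spread over 241 bp and fell into a pair at 750 and 769 bp and a group at 950 to 991 bp, which were joined by the wide peak of spt7-deletion at 25 °C, so the 2 wild-type peaks do not overlap. The peaks stood at percentiles 85.1, 75.7, 87.4 and 77.5 in the first 4 of these lists and at 4.78 in the last. Its total of 20 was near the median of 17 over the 1001 genes of like window length, of which 38.9% had as many or more. The highest-placed peak of THP1 was at 577 bp in the wild type at 37 °C, at percentile 89.4 with a fold enrichment of 5.70 (4.14 to 7.66). Of the 4 upstream summits, those at -497, -345 and -486 bp were in the coding region of the divergent neighbour DSC2, and the other lay at -4 bp in spt7-deletion at 25 °C.

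CDC31 (YOR257W, chr15:811008-811493), the centrin gene, was the gene other than SEM1 with upstream summits in the most lists, 5 of 6. Its 10 summits in all compare with a median of 8 over the 600 genes of like window length, of which 39.0% had as many or more. The upstream summits formed 2 groups. The first, at -423 bp in spt7-deletion at 25 °C and -405 bp in spt8Δ at 37 °C, was in the coding region of the divergent neighbour TRE2. The second lay between the genes, at -248 bp in spt8Δ at 25 °C, -216 bp in the wild type at 37 °C and -287 bp in the wild type at 25 °C, with fold enrichments of 2.78 (1.82 to 4.08), 4.87 (3.40 to 6.79) and 2.97 (2.08 to 4.12). A further site at the start of the coding region was listed at 26 bp in spt7-deletion at 25 °C, 43 bp in the wild type at 37 °C and 25 bp in the wild type at 25 °C, so the 2 summits at 25 °C were 1 bp apart. Its fold enrichment was 2.80 (2.17 to 3.56) in spt7-deletion at 25 °C, 4.73 (3.28 to 6.62) in the wild type at 37 °C and 2.80 (1.94 to 3.92) in the wild type at 25 °C. In spt7-deletion at 37 °C the only summit of CDC31 was at 141 bp.

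SEM1 (YDR363W-A, chr4:1202128-1202397) had 15 summits in the shortest window of the 8, 920 bp, against a median of 6 over the 390 genes of like window length, of which 6.41% had as many or more. Of the 15, 6 formed the site at a tRNA gene described below. The summit at -214 bp in spt7-deletion at 25 °C also lay within 100 bp of that gene. The standing of SEM1 without these summits was not tested. It had 4 in each spt7-deletion list, 2 in spt8Δ at 37 °C, 3 in spt8Δ at 25 °C and 1 in each wild-type list. The wild type thus had the upstream site alone, and the further summits of the mutants lay at -214 to -41 bp, within the coding region and, in spt7-deletion at 25 °C, at 403 bp. The spt7-deletion lists also hold the most peaks, and the part of this in the counts was not tested.

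The upstream site of SEM1 was the only site outside SAC3 listed in all 6 lists, and it lies at a tRNA-Lys gene (chr4:1201750-1201822, plus strand, 73 bp), which ends 305 bp before the SEM1 start codon. Genes for tRNA are transcribed by RNA polymerase III from promoters inside the gene. The summit lay 6 bp before the first base of the tRNA gene in spt7-deletion at 37 °C and 8 bp before it in spt7-deletion at 25 °C. It lay 16 bp before it in spt8Δ at 37 °C, 12 bp before it in spt8Δ at 25 °C and 16 bp before it in the wild type at 37 °C. In the wild type at 25 °C it lay elsewhere, 6 bp past the last base of the tRNA gene.

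The fold enrichment at this site was 8.32 (7.42 to 9.30) in spt7-deletion at 37 °C and 6.76 (5.75 to 7.90) at 25 °C. It was 7.10 (6.18 to 8.13) in spt8Δ at 37 °C and 6.78 (5.20 to 8.70) at 25 °C. It was 6.88 (5.09 to 9.10) in the wild type at 37 °C and 3.40 (2.44 to 4.61) in the wild type at 25 °C. In the first 5 of these lists it was among the strongest peaks, at ranks 139, 164, 116, 425 and 717 and at percentiles of 95.8 or more, whereas in the wild type at 25 °C it was at rank 6542 and percentile 60.5. Over all 8 genes, 6 of the 106 summits were at or above the 90th percentile of their list, and 5 of them were these peaks.

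The site stood at an ordinary level among tRNA genes in all lists but the wild type at 25 °C, where it was low. Between 237 and 267 of the 275 tRNA genes had a summit in each list, and the median of the strongest fold enrichment at those genes was 8.47 in spt7-deletion at 37 °C, 7.15 in spt7-deletion at 25 °C, 6.23 in spt8Δ at 37 °C, 6.34 in spt8Δ at 25 °C, 6.31 in the wild type at 37 °C and 5.27 in the wild type at 25 °C. By fold enrichment the tRNA-Lys gene was at place 136 of 264, 149 of 267, 103 of 263, 114 of 249, 100 of 244 and 192 of 237 in the same order of lists. In the wild type at 25 °C its interval of 2.44 to 4.61 lay below the median over tRNA genes. The median summit position over tRNA genes, between 10 and 13 bp before the first base, was close to that of this gene in all lists but the wild type at 25 °C. The sequence of this tRNA gene occurs 14 times in the genome, and how reads that map to several copies were assigned is not given in the sources used here. Only 125 genes (2.08%) have a whole tRNA gene in the 500 bp upstream, so SEM1 is unlike the other 7 genes in this respect, whose windows lie at least 21795 bp from any tRNA gene.

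**Figure D3:**
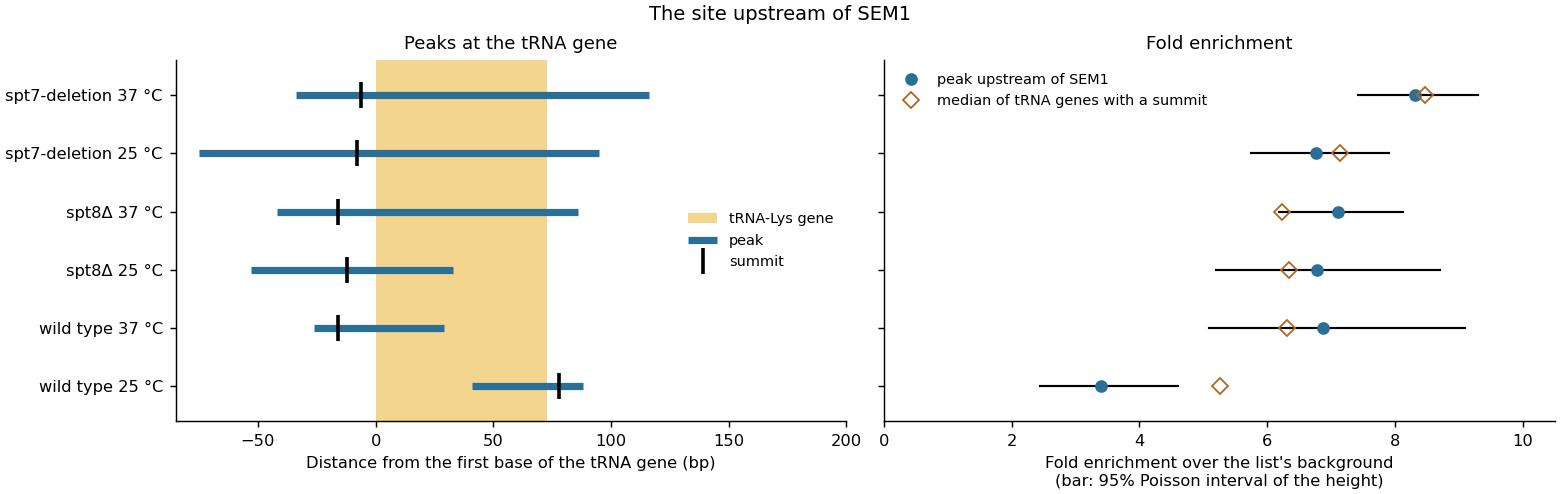
The Sus1 site upstream of SEM1. The left panel gives each peak (blue bar) and its summit (black mark) as distance in bp from the first base of the tRNA-Lys gene (yellow), and the right panel gives its fold enrichment with the 95% Poisson interval of its height and the median over tRNA genes with a summit (open diamonds). In 5 lists the summit is 6 to 16 bp before the tRNA gene, and in the wild type at 25 °C it is past its end, with a fold enrichment of 3.40.

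Counted by list, the 8 windows held 16 summits in spt7-deletion at 37 °C, 19 in spt7-deletion at 25 °C, 16 in spt8Δ at 37 °C, 17 in spt8Δ at 25 °C, 16 in the wild type at 37 °C and 22 in the wild type at 25 °C. In each strain the count was lower at 37 °C, but with only peaks of -log10 q of at least 5 it was higher in spt8Δ, at 15 summits at 37 °C and 11 at 25 °C. Per kb of window this was 1.04, 1.24, 1.04, 1.11, 1.04 and 1.43 summits at the 8 genes in the same order, against 1.62, 1.45, 1.38, 1.34, 1.43 and 1.36 over the windows of all genes. The wild type at 25 °C was the only list in which the 8 genes were above all genes, and the gap was widest in spt7-deletion at 37 °C, the list with the most peaks.

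**Figure D4:**
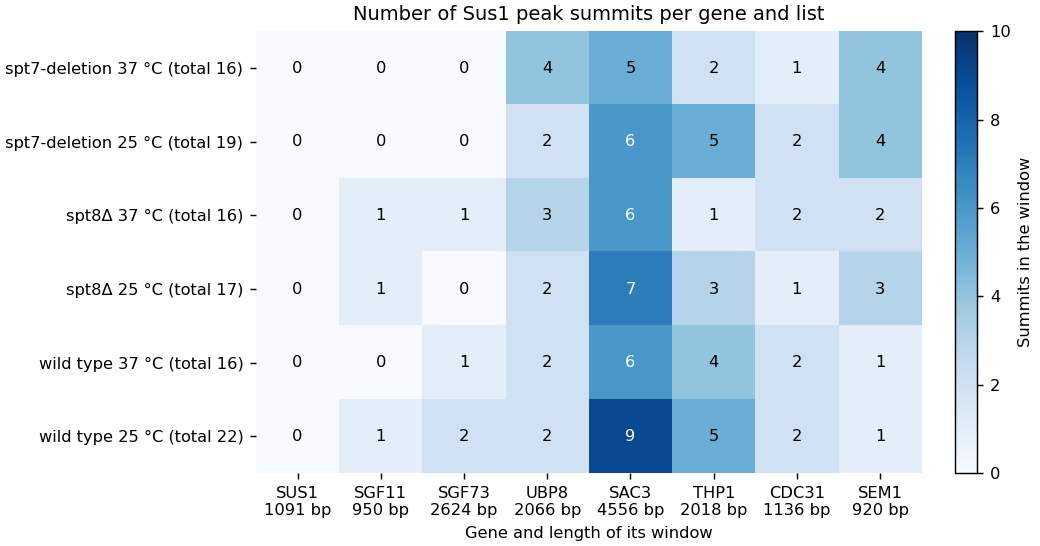
Number of Sus1 peak summits in the window of each gene (columns, with the window length) in each list (rows, with the total). Counts run from 0 at SUS1 in every list to 9 at SAC3 in the wild type at 25 °C.

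A summit anywhere in the window was listed for 5 of the 8 genes in both spt7-deletion lists (84.5% of all genes at 37 °C and 83.5% at 25 °C), for 7 in spt8Δ at 37 °C (81.4%), for 6 in spt8Δ at 25 °C (85.2%), for 6 in the wild type at 37 °C (87.2%) and for 7 in the wild type at 25 °C (84.5%). SUS1 was the gene without one throughout, and SGF11 and SGF73 made the difference between lists. In neither spt7-deletion list was a peak found at SUS1, SGF11 or SGF73, so that UBP8 was then the only gene of the deubiquitinase module with one.

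An upstream summit was listed for 2 of the 8 genes in spt7-deletion at 37 °C (40.8% of all genes), 4 in spt7-deletion at 25 °C (38.0%), 2 in spt8Δ at 37 °C (40.2%), 3 in spt8Δ at 25 °C (41.8%), 3 in the wild type at 37 °C (44.8%) and 6 in the wild type at 25 °C (39.7%). The wild type at 25 °C had the most, with SGF73, UBP8, SAC3, THP1, CDC31 and SEM1. Of those 6 genes, SGF73 had its summit within NPY1 and THP1 within DSC2. The 6 became 4 with -log10 q of at least 5, with midpoints, with 300 bp upstream or without summits in other coding regions, and with midpoints spt7-deletion at 25 °C also had 4. SUS1 and SGF11 had no upstream summit in any list.

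Set by temperature, none of the 8 genes had an upstream summit at 37 °C alone, whereas over all genes 18.3% did in spt7-deletion, 17.9% in spt8Δ and 22.6% in the wild type. At 25 °C alone, an upstream summit was listed for THP1 and CDC31 in spt7-deletion (15.5% of all genes), for SAC3 in spt8Δ (19.5%) and for SGF73, UBP8 and SAC3 in the wild type (17.5%). The SGF73 site was also listed in the wild type at 37 °C, with its summit outside the window at -581 bp. The absence of genes with an upstream summit at 37 °C alone did not hold under 5 other settings. With -log10 q of at least 5, SAC3 in spt7-deletion and CDC31 in spt8Δ had one at 37 °C alone, as had SAC3 in spt7-deletion with equal numbers of peaks, THP1 in the wild type with midpoints and SEM1 in spt8Δ with 300 bp upstream. Without summits near tRNA genes, SEM1 in both mutants did. The genes with an upstream summit at 25 °C alone also changed with the setting. With 300 bp upstream they were THP1 in spt7-deletion, CDC31 in spt8Δ and UBP8, SAC3 and SEM1 in the wild type. With 1000 bp they were THP1, SAC3 and SUS1 in the same order of strains. With -log10 q of at least 5, spt8Δ had none. They stayed the same with equal numbers of peaks and without summits near tRNA genes. In the lists as deposited, the genes that lacked the upstream summit at 37 °C thus differed by strain, with SAC3 in both spt8Δ and the wild type. With 8 genes and 1 list per condition, and lists of unequal depth, heat, strain and depth cannot be told apart in these counts.

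**Figure D5:**
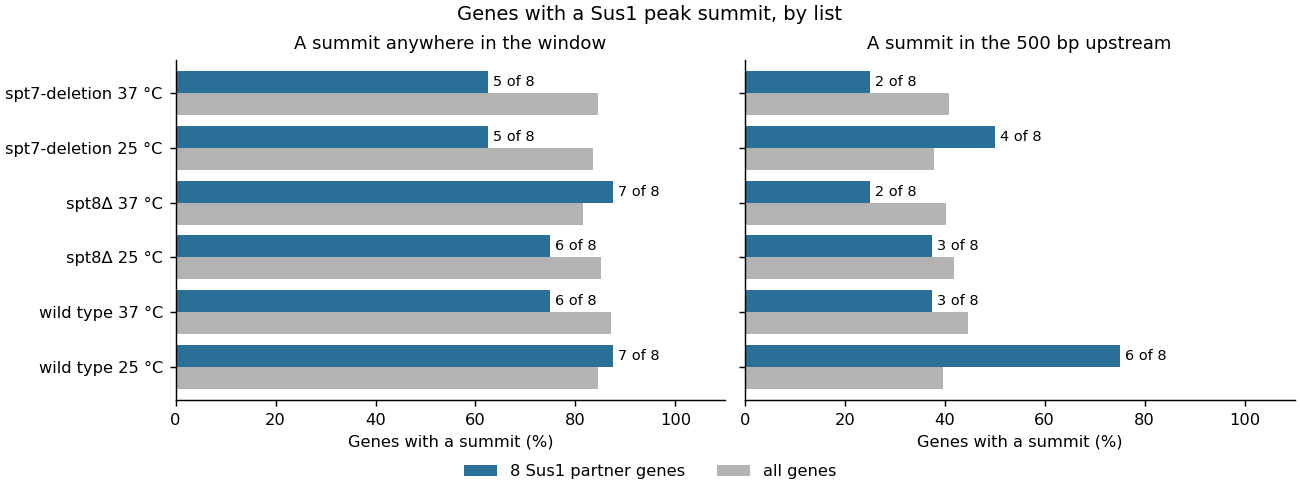
Share of the 8 genes (blue, with the count) and of all 6002 genes (grey) with a summit in the whole window (left) or in the 500 bp upstream (right), in percent, for each list. For upstream summits the 8 genes run from 2 of 8 in both mutants at 37 °C to 6 of 8 in the wild type at 25 °C, while the share of all genes stays between 38.0 and 44.8%.

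By standing in their lists, the peaks at these genes lay around the middle, with few among the strongest outside SEM1. Of the 106 summits, 61 (57.5%) were under the 50th percentile of their list and 14 (13.2%) under the 10th, where 50% and 10% of all peaks lie by construction. At or above the 90th percentile, where 10% of all peaks lie, were 6 of the 106, and only 1 of these was outside SEM1. The median percentile of the summits was 49.9 in spt7-deletion at 37 °C, 40.9 in spt7-deletion at 25 °C, 51.3 in spt8Δ at 37 °C, 39.8 in spt8Δ at 25 °C, 70.4 in the wild type at 37 °C and 37.2 in the wild type at 25 °C, where 50 is the middle of a list. The wild type at 37 °C was highest, with fewer summits but with peaks above the 85th percentile at UBP8, SGF73, THP1 and SEM1. Its 16 summits ran from percentile 1.89 to 95.8, and 10 of them are in SAC3 and THP1. The base composition around the summits was close to that of the genome, with a median of 38.6% G and C in the 101 bp around a summit and 38.3% in the genome. By list, in the order above, the median was 37.1, 39.6, 39.1, 38.6, 37.6 and 38.1%. Over all summits of each list it was 40.6, 39.6, 40.6, 39.6, 39.6 and 39.6%, which is higher in all lists but spt7-deletion at 25 °C.

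Sites at the 8 genes were found in a single list about as often as elsewhere, and less often in at least 4 lists. The 106 summits belonged to 49 sites, of which 21 (42.9%) were listed in 1 list, against 41.5% of the 40817 sites of the whole genome. Of the 49 sites, 16 (32.7%) were in at least 3 lists, against 37.1% of all sites. Sites in exactly 3 lists made up 20.4%, against 14.3% of all sites. Those in 4, 5 and 6 lists made up 6.12, 2.04 and 4.08%, against 10.3, 7.20 and 5.33% of all sites. Of the peaks at these genes in spt7-deletion at 37 °C, 9 of 16 (56.2%) overlapped a peak of spt7-deletion at 25 °C by at least 1 bp, against 46.1% over that whole list. In spt8Δ the count was 6 of 16 peaks at 37 °C (37.5%, against 38.4% over the list), and in the wild type 4 of 16 (25.0%, against 33.8%).

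Between strains at 37 °C, 2 of the 16 peaks of spt7-deletion (12.5%) overlapped a wild-type peak, against 38.5% over the list, and 5 of the 16 peaks of spt8Δ did (31.2%, against 39.9%). At 25 °C it was 7 of the 19 peaks of spt7-deletion (36.8%, against 40.2%) and 5 of the 17 peaks of spt8Δ (29.4%, against 36.1%). The 2 shared peaks at 37 °C in spt7-deletion are a small count, and both mutants are set against the same wild-type lists.

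The proteins these genes encode act with a wider set of factors, of which 21 genes were also counted, namely 6 of the H2B ubiquitin cycle (RAD6, BRE1, LGE1, HTB1, HTB2 and UBP10), 13 of mRNA export and the nuclear basket (THO2, HPR1, MFT1, THP2, TEX1, SUB2, YRA1, MEX67, MTR2, NUP1, NUP60, MLP1 and MLP2) and the pair THP3 and CSN12. A summit in the window was listed for 19 of the 21 genes in spt7-deletion at 37 °C, for 21 in spt7-deletion at 25 °C and for 20 in each of the other lists, against between 81.4 and 87.2% of all genes. An upstream summit was listed for 12 (57.1%, against 40.8% of all genes) in spt7-deletion at 37 °C and 9 (42.9%, against 38.0%) at 25 °C. It was listed for 13 (61.9%) in spt8Δ at 37 °C and 13 at 25 °C, against 40.2 and 41.8% of all genes. In the wild type it was 9 (42.9%, against 44.8%) at 37 °C and 8 (38.1%, against 39.7%) at 25 °C. None of the 21 was without a summit in all lists, as SUS1 was, and 17 (81.0%) had one in every list, against 63.1% of all genes. Their density was 2.33, 2.24, 1.87, 1.78, 1.65 and 1.63 summits per kb in the same order of lists, above that of the 8 genes and of all genes in each list. The 21 genes include long ones, with windows of 6278 bp at MLP1 and 5690 bp at MLP2. They were not set against genes of like window length, and the part of length in these figures was not tested.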

How the data were processed

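The authors mapped ChIP-exo reads to sacCer3 with BWA (version 0.6.2 in the submitters' notes, which also name CASAVA 1.7) and deposited 1 peak list per strain and temperature. In the deposited lists each peak has a fold enrichment, which is a ratio to the local background, and 2 measures of significance given by the authors as -log10 values, of p and of q. Which caller and control were used, and how replicates were combined, is not given in the sources used here, while the layout is that of MACS2. The labels name 3 replicates of each tagged condition and the paper fewer, and read totals are not part of the lists. As a measure of depth, the 2 deposited values of a peak, fold enrichment and -log10 p, were solved together for its height and background under a Poisson model (pseudocount 1). Heights came out within 0.05 of a whole number for at least 99.99% of the solved peaks.

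Genes, tRNA genes and sequences came from the RefSeq annotation and genome of the same build. A peak was placed at its summit, positions count from the first base of the start codon as 0, and a summit counted for every gene whose window held it. All 8 genes are named, and sites are named where listed in at least 3 lists or where they hold the highest peak of a gene. The genes, lists of genes and windows were chosen with earlier results of these data known. No test was made, since there is 1 list per condition. Alternatives were peaks with -log10 q of at least 5, the 16593 strongest peaks of each list, midpoints, upstream regions of 300 and 1000 bp, no region after the stop codon, no summits in other coding regions, ranks by -log10 q and other definitions of a site. The counting was tested on simulated lists. Python 3.11.15, numpy 2.4.6, pandas 2.3.3, scipy 1.17.1 and matplotlib 3.10.9 were used.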

Additional observations from a re-analysis of the deposited data

Results flagged for a closer look

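At 2 of the genes the number of summits changed with heat in opposite directions in different strains. At SGF73 the count at 37 °C minus that at 25 °C was 1 in spt8Δ and -1 in the wild type. At CDC31 it was -1 in spt7-deletion and 1 in spt8Δ. With 1 list per condition these differences were not tested, and each rests on a single peak. At SGF73 in the wild type this peak was at -494 bp, in a site also listed at 37 °C with its summit outside the window.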

How the results depend on the processing

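Of 174 values recomputed under another setting, 160 stayed within 1.5 times the main count or, for the median percentile, within the order-statistic range of its summits, and 14 moved. These limits are wide, and that range ran from 14.3 to 86.7 in the wild type at 37 °C, so staying within them says little. The list of spt8Δ at 25 °C holds 16593 peaks, so equal numbers of peaks leave it unchanged. With only peaks of -log10 q of at least 5, spt8Δ had 15 summits at 37 °C and 11 at 25 °C, the opposite order to the main counts, and 1 gene with an upstream summit at 25 °C, and 9 sites were in at least 3 lists. With an upstream region of 300 bp, 1 gene had an upstream summit in spt8Δ at 37 °C, 1 in spt8Δ at 25 °C and 1 in the wild type at 37 °C. With 1000 bp it was 5 in spt7-deletion at 37 °C, 5 in spt8Δ at 37 °C, 6 in spt8Δ at 25 °C and 6 in the wild type at 37 °C. Without summits in the coding region of another gene, spt8Δ at 37 °C had 1 gene with an upstream summit. The count of recurrent sites was 5 with a reciprocal overlap of 50%, 6 with summits within 25 bp and 6 for at least 4 lists. The number of genes with a summit stayed within 1.5 times the main count under each of its 48 alternatives, but it cannot exceed 8 and had little room to rise. Leaving out summits within 100 bp of a tRNA gene, an alternative chosen after seeing the data, moved none of these values by more than that. No paired analysis was possible because the lists are not divided by replicate, and no replicate could be left out for the same reason. Depth bears on what is listed. In order of rising background the median fold enrichment of the lists fell, from 3.49 in the wild type at 37 °C to 2.33 in spt7-deletion at 37 °C. What this does to the counts was not tested.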
